A study of Arabidopsis thaliana with 6 samples.

Results

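NAC053 of Arabidopsis thaliana, locus AT3G10500 and also known as NTL4, was followed through its probe set 258921_at on ATH1 arrays, 1 of the 22746 probe sets that are not array controls. The row was chosen by its identifier, with its difference between the groups already known, so that difference is described here and not tested. The annotation used here leaves the probe set unnamed. Its assignment to NAC053 was given with the choice of the row and was not checked here against an annotation or probe sequences.

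Total RNA of whole plants at growth stage 1.04, grown on plates under 9 h of light and 15 h of dark at 22 °C, was hybridised to 6 arrays. The groups were 3 samples of the wild type, accession Col0, and 3 samples of a line mutated in ATM, a kinase activated at DNA double-strand breaks. The titles name the line atm, its source name is ATM1 and its genotype reads AtATM3 mutant. All 3 mutant samples carry the same stock code, which makes the mutant 1 line. By its title the series looked for ATM-dependent transcripts induced by X-rays. No irradiation, dose or time is given for any sample, so only the genotypes could be compared. Nothing in the labels says that replicates came from separate cultures, and their spread may be technical.

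NAC proteins are a plant-specific family of transcription factors named for a conserved DNA-binding domain at the N terminus. NAC053 belongs to the members that also carry a transmembrane segment at the C terminus, which holds the protein at a membrane until it is cleaved off and the factor can enter the nucleus. It is known from drought studies for activating NADPH oxidase genes and promoting leaf senescence through reactive oxygen, and, with its close relative NAC078, for activating genes of proteasome subunits when the proteasome is impaired. Another NAC factor, SOG1, acts directly downstream of ATM in the response to DNA damage.

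The NAC053 signal was lower in every atm mutant array than in any wild type array. MAS5 signal, the value deposited per probe set, is a brightness on a linear scale. In the wild type it was 427.7 on replicate 1, 522.6 on replicate 2 and 467.4 on replicate 3. In the atm mutant it was 162.2 on replicate 1, 154.3 on replicate 2 and 177.4 on replicate 3. The groups lay far apart: the lowest wild type signal was 2.41 times the highest mutant signal, while within a group the highest was at most 1.22 times the lowest.

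**Figure D1:**
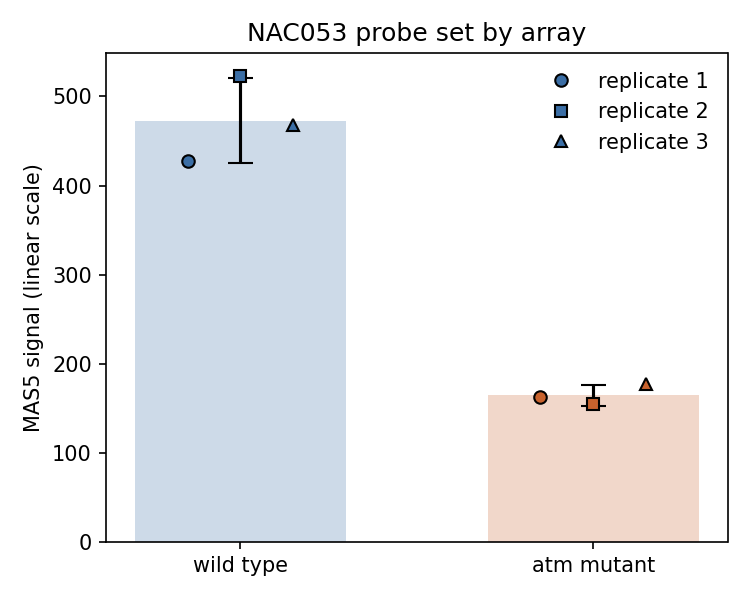
MAS5 signal of the NAC053 probe set (vertical axis, linear scale) in wild type and atm mutant samples. Bars are group means, error bars the SD of 3 arrays and points the single arrays. The wild type arrays sit between 427.7 and 522.6 and the mutant arrays between 154.3 and 177.4.

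The wild type averaged 472.6 ± 47.7 and the atm mutant 164.7 ± 11.8 (SD, n = 3 each). On the log2 scale the means were 8.88 ± 0.14 and 7.36 ± 0.10, a difference of -1.52. The geometric mean of the mutant was thus 34.9% of that of the wild type, or 2.87-fold lower. NAC053 remained well measured in the mutant, since its signal lay above the 80th percentile of each mutant array (80.4 to 83.0) and between percentiles 93.3 and 94.7 of the wild type arrays. It therefore passed the filter on dim probe sets in both groups, which asked for a signal above the 40th percentile on at least 3 arrays, and its difference does not rest on values near the floor of the array.

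Within a genotype the NAC053 signal varied little. Its coefficient of variation was 10.1% over the wild type arrays and 7.14% over the mutant arrays. Its SD within genotypes, pooled on the log2 scale, was 0.13, against a median of 0.23 over the 13895 probe sets tested, and 84.6% of these had a larger one. The choice of the gene may have drawn on this spread as well as on the difference, so it is given as a description.

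Set among all 13895 tested probe sets, the NAC053 difference was the 40th most negative. The middle of all differences was close to zero, with a median of 0.01 on the log2 scale, and 5% of probe sets lay below -0.37 and 5% above 0.34. A fall of at least 2-fold was found in 0.648% of the tested probe sets, the groups did not overlap in 8.66%, and all mutant arrays lay below all wild type arrays in 4.85%. In the limma fit across all probe sets 0.223% were called at an adjusted p under 0.05, every one of the 31 lower in the mutant. That count was 13 without wild type replicate 2 and also without wild type replicate 3, 11 with the replicate block, 73 with array weights (5 higher) and 233 without both wild type replicate 1 and atm mutant replicate 2 (76 higher). Nothing is read from these shares about NAC053, because its choice used the same contrast. The rank depended on the processing. NAC053 was at rank 28 of 9307 with a filter at the 60th percentile and at rank 350 of 22746 with no filter. Over the same 13895 probe sets it was at rank 62 without atm mutant replicate 2 and at rank 25 with a pseudocount of the 40th percentile.

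**Figure D2:**
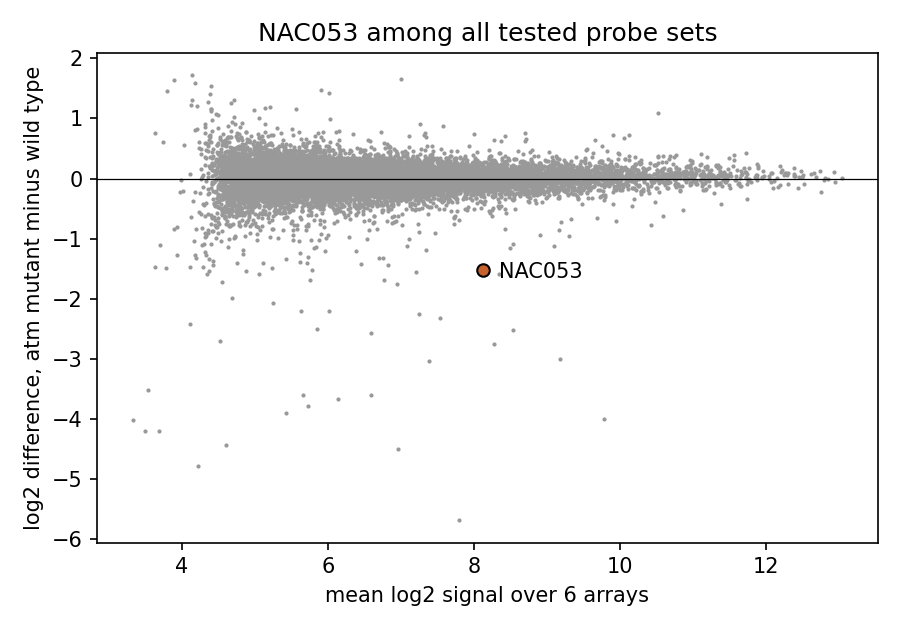
Log2 difference of atm mutant minus wild type (vertical axis) against mean log2 signal over 6 arrays (horizontal axis) for the 13895 tested probe sets, in grey, with NAC053 marked. NAC053, at -1.52, lies apart from the band around zero that holds most probe sets.

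Wild type replicate 1 and atm mutant replicate 2 stood apart from the other 4 arrays. Their deviations from their group means correlated at 0.647 over tested probe sets (probe sets are no independent replicates). In 18.7% of these both arrays were above the other 4, in 19.4% below. Their signals for the 25S ribosomal RNA control were 836 and 2123, against 4106 to 5400 on the others. NAC053 had its lowest signal of each genotype on these arrays, by 0.21 on the log2 scale below the mean of the other wild type arrays and by 0.14 below that of the other mutant arrays. Of all tested probe sets, 59.8% had a larger mean shift in absolute size on the 2 arrays. The NAC053 signal was 2.77-fold lower in the mutant between these 2 arrays alone and 2.91-fold lower over the other 4 arrays. Since the groups did not overlap, any such split gives a value between 2.41-fold and 3.39-fold. Nothing is therefore read from the likeness of the 2 values.

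A control for RNA quality moved in part with genotype. For GAPDH the wild type replicates 1, 2 and 3 gave 3' to 5' signal ratios of 1.409, 1.079 and 1.101, and the mutant replicates gave 1.559, 1.486 and 1.405. Its part in the NAC053 difference was not tested. The arrays with nearly equal ratios, wild type replicate 1 and atm mutant replicate 3, had NAC053 signals of 427.7 and 177.4. This is 1 pair, and the first of them is an array that stood apart, so nothing is read from it. The GAPDH ratios overlapped between the genotypes only through this pair. Those for actin and ubiquitin overlapped too, and were higher than those for GAPDH on every array. For actin they were 8.35 to 11.1 in the wild type and 9.10 to 9.94 in the mutant. For ubiquitin they were 2.72 to 3.25 and 2.33 to 2.91.

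Of the NAC family, RefSeq lists 105 other loci by the name search used, and the annotation names a probe set for 1 of them. That 1 was NAC014 (AT1G33060), another membrane-bound factor, and limma did not call it (0 of 1, beside 0.223% of all probe sets). On wild type replicates 1, 2 and 3 NAC014 read 66.4, 49.8 and 48.8. On the mutant replicates the NAC014 signals were 47.4, 85.3 and 50.9, so the genotypes overlapped. Its log2 difference was 0.12 (SE 0.26, limma adjusted p = 1), with a mean of 55.0 ± 9.86 for the wild type against 61.2 ± 20.9 for the mutant (SD, n = 3 each). NAC014 was highest on the 2 arrays that stood apart and lay between 47.4 and 50.9 on the other 4, over which its log2 difference was -0.01. On these 2 arrays NAC053 was at its lowest in each genotype, in a comparison that holds 1 array of each genotype and was not tested. Both arrays were above the other 4 in 18.7% of all tested probe sets, as in NAC014. A larger mean shift on them than that of NAC053 was seen in 59.8%. Nothing is therefore read from these shifts about the membrane-bound factors. No other of the 13 membrane-bound NAC loci listed beside NAC053 had a named probe set, nor had SOG1 and the other 3 NAC loci listed for the DNA damage response. NAC050 and NAC052, which lie next to NAC053 on chromosome 3, were also without one. Probe sets for these genes may be among the 8730 that are unnamed here, so the family was not covered.

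Genes of the processes in which NAC053 is known to act were sparsely named too. They were listed by process, and not as known targets of NAC053. None of the 31 loci that RefSeq names as proteasome subunits or partners had a named probe set. RPN12a (AT1G64520), a subunit of the regulatory particle of the proteasome, carries no such word in its RefSeq entry and was added after its values were seen. Wild type replicates 1, 2 and 3 read 440.6, 473.7 and 494.5, and the mutant replicates 464.5, 422.1 and 489.3. The genotypes overlapped throughout, and the log2 difference was -0.04 (SE 0.12, limma adjusted p = 1).

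Of the NADPH oxidases, which make superoxide at the cell surface, 3 of 10 listed loci had named probe sets. AT1G19230, AT4G25090 and AT4G11230 were all too dim to be tested, with signals from 2.73 to 31.6 over the 6 arrays. Their log2 differences were 0.31, -1.16 and 0.11. In each of them the genotypes overlapped, in AT4G25090 only through wild type replicate 1. There AT4G25090 read 9.38, against 30.5 and 31.6 on wild type replicates 2 and 3 and 18.8, 2.73 and 15.9 on the mutant replicates. At such dim signals neither a change nor its absence can be read. Of 14 loci for senescence and chlorophyll breakdown 2 were named on the array, and limma called 0 of the 1 tested, beside 0.223% of all probe sets. SAG101, a lipase-like protein of senescence and immunity, read 43.8, 39.4 and 55.9 in wild type replicates 1, 2 and 3, and 32.0, 40.5 and 35.1 in the mutant replicates. The ranges overlapped narrowly, and the log2 difference was -0.36 (SE 0.21, limma adjusted p = 1, unadjusted p = 0.12). SAG29, the sugar transporter SWEET15, was too dim to be tested. Its signals were highest on the 2 arrays that stood apart: wild type replicate 1 read 46.8 and atm mutant replicate 2 read 52.6, while the rest read 9.80 to 21.0. Both of these arrays were above the other 4 in 18.7% of all tested probe sets, so nothing is read from this about senescence.

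**Figure D3:**
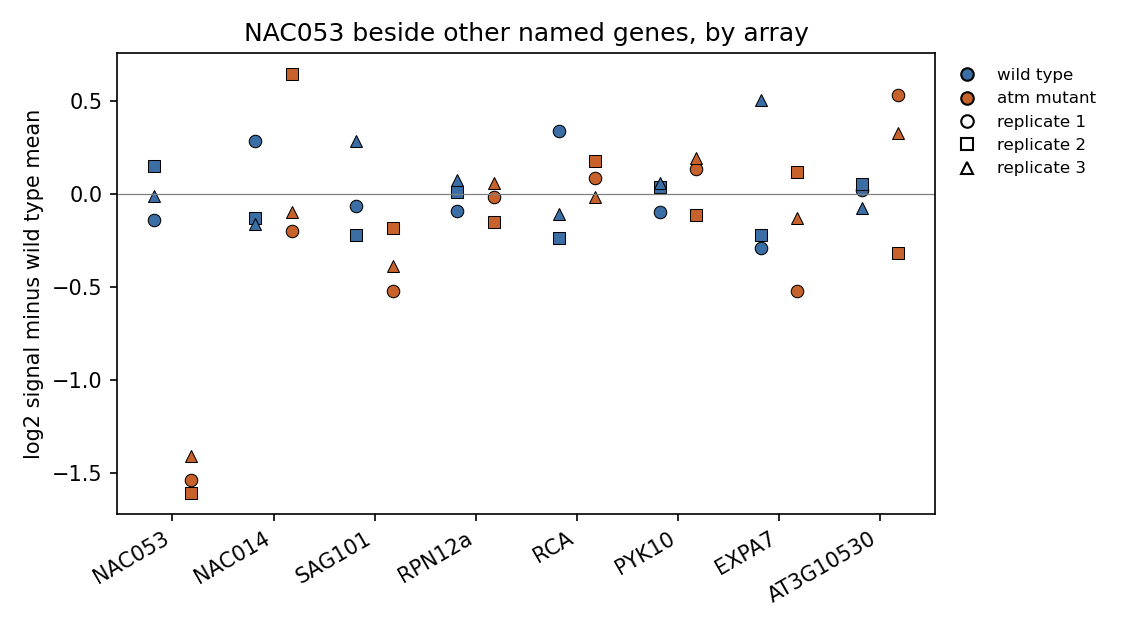
Log2 signal of each array minus the wild type mean of the same gene (vertical axis) for NAC053 and 7 other named genes, with blue for wild type, orange for atm mutant and the symbol for the replicate number. The mutant arrays of NAC053, chosen with its difference known, lie well below its wild type arrays. The groups overlap in NAC014, SAG101, RPN12a (added after its values were seen), RCA, PYK10, EXPA7 and AT3G10530. Over all tested probe sets 8.66% had groups that did not overlap, so overlap is what most genes give.

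The tissue was checked with markers of green tissue and root. RCA, the activase of Rubisco in leaves, ranged from 4133 to 6177 over wild type arrays and from 4826 to 5520 over mutant arrays, with a log2 difference of 0.08 (SE 0.16, limma adjusted p = 1). PYK10, a root beta-glucosidase, had 2957 to 3304 in the wild type and 2931 to 3624 in the mutant. The root hair expansin EXPA7 had 25.7 to 44.8 and 21.9 to 34.1. These genotype ranges all overlapped, and limma called none of the 3 markers (smallest unadjusted p = 0.569). Over all tested probe sets 0.223% were called and 8.66% had groups that did not overlap, so these counts are what most genes give. RCA and PYK10 lay above the 40th percentile on all 6 arrays and EXPA7 on 5. The 7 flower and seed markers listed had no named probe set. In whole plants a lower signal cannot be told apart from fewer cells that express the gene.

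Among the 5 annotated genes on either side of NAC053, 3 were named on the array, and in each of them the genotypes overlapped. Groups did not overlap in 8.66% of all tested probe sets, so overlap is what most genes give. Nothing is read from it about these neighbours. AT3G10530, the fifth gene on one side, was the only one bright enough to test, with a mean of 43.2 ± 2.01 for the wild type against 50.5 ± 14.4 for the mutant (SD, n = 3 each), a log2 difference of 0.18 (SE 0.24, limma adjusted p = 1). AT3G10460 and AT3G10470, the fifth and the fourth on the other side, had signals of at most 14.3 and 23.7, and their genotypes overlapped. The genes directly beside NAC053 were not named.

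The probe sets with the pattern most like NAC053 were sought over the 6 arrays. Likeness was measured as the root mean square difference between log2 profiles, each centred on its own mean, so a small value means that a probe set moved by a similar amount on every array. Among the 13894 other tested probe sets the median was 0.801. The nearest of all was AT3G14560, at 0.152. It read 174.9, 193.3 and 190.9 in wild type replicates 1, 2 and 3, and 59.3, 77.6 and 69.8 in the mutant replicates. AT1G80850 followed at 0.190 and AT1G23710 at 0.192. The 10 nearest probe sets comprised 3 with a single named gene, 1 with several and 6 without a name here.

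The 10 genes named for their likeness to NAC053 were those nearest among probe sets with a single named gene. The tenth of them stood at rank 23 among all tested probe sets, since 13 unnamed or several-gene probe sets lay in between. After the 3 above came AT1G49980 (0.273), AT2G47680 (0.275), ATMND1 (0.283), AT3G56250 (0.299), AT1G23000 (0.312), AT1G03440 (0.313) and AT1G31150 (0.319). ATMND1 encodes a protein of meiotic recombination. Every one of the 10 was lower in the mutant, with log2 differences from -1.71 to -0.99, which the choice by likeness fixes. ATMND1, AT3G56250 (the -1.71) and AT1G31150 exceeded the 40th percentile on 3 arrays only, those of the wild type. They thus passed the filter through the wild type, and the sizes of their differences rest on dim mutant values of 7.70 to 16.9. AT1G80850, AT1G49980, AT2G47680 and AT1G23000 exceeded that percentile on 5 arrays. Their lowest mutant arrays, at 25.3, 23.7, 24.3 and 22.0, lay below it. What the 10 genes shared with NAC053 was the step between the genotypes: with profiles centred within each genotype, 0 of the 10 were again among the nearest. AT3G14560 then fell to rank 3681. Ranked by Pearson correlation over the 6 arrays instead, 2 of the 10 were again among the nearest 10 named genes, and 64 probe sets had an r of at least 0.95 with NAC053. The 6 arrays form 2 separate genotypes, so these values describe that step and not a relation within a genotype.

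**Figure D4:**
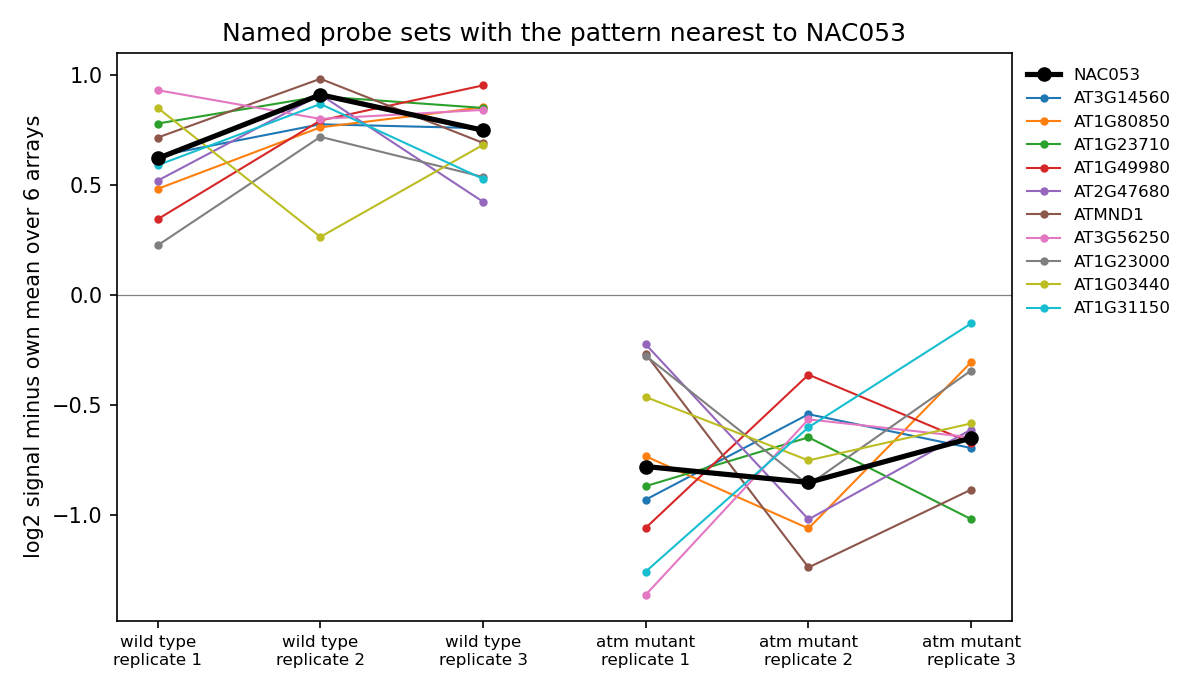
Log2 signal minus its own mean over the 6 arrays (vertical axis) by array, for NAC053 (black) and the 10 named genes with the nearest pattern. Lines join values of a gene within a genotype only to guide the eye; all wild type values lie above zero and all mutant values below.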

How the data were processed

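The authors deposited 1 MAS5 signal intensity per probe set and array, which the submitters' processing notes credit to GCOS; its scaling target and detection calls are not given in the sources used here. Arrays have no read depth, and their number limits the precision. The log2 of each intensity was used without rescaling. The 64 control probe sets were left out, and the 13895 of 22746 probe sets that exceeded the array's 40th percentile on 3 or more arrays were tested. Atm mutant minus wild type was fitted over all 6 arrays with limma 3.58.1 in R 4.3.3 (eBayes with an intensity trend), two-sided, Benjamini-Hochberg adjusted over all tested probe sets, and was checked on simulated data. The check on simulated data cannot show that the fit is calibrated for these arrays, because their deviations were partly shared. Those of the arrays that stood apart correlated at 0.647. Calibration under such shared deviations was not tested. With 3 arrays against 3 an exact permutation test cannot go below 0.1, so p-values rest on limma. Percentiles and ranks are over probe sets without controls.

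Probe sets were named through the platform annotation and RefSeq of TAIR10.1 by gene ID: 13513 had 1 gene (13436 matched), 503 several and 8730 none. A gene with several probe sets was represented by the brightest. The build behind the array was not given, so no coordinates were used. NAC genes and proteasome genes were found by words in RefSeq symbols and synonyms, the other lists by locus. The named genes were NAC053, the listed NAC genes, the called or else lowest-p members of each list, the 10 named probe sets most like NAC053 and its named neighbours. NAC053, the lists and the alternatives were chosen with earlier results of these data known. Deviations of arrays with equal replicate numbers correlated at -0.461, -0.46 and 0.379, so these numbers were not taken to pair the samples.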

Additional observations from a re-analysis of the deposited data

How the results depend on the processing

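The NAC053 difference stayed negative under all 13 alternatives run for it. Leaving out arrays could not turn its sign, because all mutant arrays lay below all wild type arrays. The replicate block and a floor at the 20th percentile left the value unchanged by construction. The sign is therefore no support for a difference that was known when the gene was chosen. The size was -1.59 to -1.44 without any 1 array and -1.52 with the replicate block. With a pseudocount of the 40th percentile, which shrinks differences by construction, it was -1.39. The count of calls over all probe sets, 31, was 11 with the replicate block, 73 with array weights (5 higher in the mutant), 233 without both deviating arrays (76 higher), and 13 to 36 without 1 array, with 13 both without wild type replicate 2 and without wild type replicate 3. The cause was not tested. The same-numbered arrays share only a number, as far as the labels tell. NAC014 and SAG101 gave 0 calls under the alternatives that kept them; a filter at the 60th percentile removed both. Of the 10 genes most like NAC053, 6 were again among the nearest with no filter, 5 with a filter at the 60th percentile, 5 with the pseudocount, 4 without both deviating arrays, 2 by Pearson correlation, 0 when centred within each genotype, and 5 to 8 without 1 array. AT3G14560 and AT1G23710 stayed among them in 14 of 15 alternatives each, AT1G31150 in 3. For the proteasome list no alternative could give a value, since none of its 31 loci was named; RPN12a, which is outside that list, was not run through the alternatives. Signals near the floor of the arrays, as in the NADPH oxidases, allow no comparison.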
